A study of Homo sapiens with 20 samples.

Results

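The sites described here are stretches of RNA on which the RNA-binding protein hnRNPA1 gave a called peak in every library, in control cells and again in cells that overexpress it. Peaks of the 4 hnRNPA1 iCLIP libraries were merged where they shared 1 nt or more of the same strand, and a merged site was kept when it held a peak in both control and both overexpression libraries. Of 209545 merged sites, 9274 (4.43%) met this rule. The hnRNPA1 peaks therefore chose the sites, and hnRNPA1 values on them are given as a description without a test. The U2AF2 and SRSF1 libraries played no part in the choice.

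In iCLIP, proteins are crosslinked to RNA in living cells, a protein is immunoprecipitated, and the RNA fragments bound to it are sequenced. The labels give the cells as TREX FLP-In 293T, and the RNA-seq titles as HEK293 TREX FLP-In, a human embryonic kidney line built to carry inducible transgenes. Control cells are labelled as without overexpression, and overexpression cells held inducible T7-tagged hnRNPA1. Both received tetracycline for 24 h after 3 days of selection. Blasticidin was common to both, but the second selecting drug differed: zeocin for control cells and hygromycin for the inducible cells. That drug, the cell line made with it and the overexpression cannot be told apart. The iCLIP libraries came from nuclear extracts, in duplicate for each hnRNPA1 condition (n = 2) and in triplicate for U2AF2 and SRSF1 (n = 3). Of 10 blood and liver markers, 1 had any hnRNPA1 site and 0 had a kept site. Of 8 genes listed for an embryonic kidney line, 4 had a site and VIM, which encodes vimentin, had 1 kept site.

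hnRNPA1 is an abundant nuclear protein that binds UAG-containing RNA through paired RNA recognition motifs and often represses the use of nearby splice sites. U2AF2 is the large subunit of the factor that recognises the polypyrimidine tract in front of the 3′ splice site and recruits the U2 snRNP. SRSF1, of the SR family (named for serine and arginine repeats), attaches to purine-rich enhancers in exons and promotes their inclusion. A change in reads at a site can come from a change in binding or in the amount of that RNA in the nucleus, and these cannot be told apart here.

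Small nucleolar RNAs (snoRNAs) and scaRNAs, their Cajal body counterparts, guide the chemical modification of ribosomal and spliceosomal RNA and are mostly cut from introns of host genes. Among the kept sites, 64 (0.690%) lay on such a gene. They made up 0.0531% of the sites found in both control libraries only, 0 of the 3139 sites found in both overexpression libraries only, and 0.0630% of all merged sites. Of 106 snoRNA or scaRNA sites with a peak in both control libraries, 64 (60.4%) were kept, against 16.9% of all 54723 sites present in both control libraries. Sites with more reads are more easily kept in shallow libraries, and the part of read number in this difference was not tested. The sequences below belong to 5 SNORD transcripts (box C/D snoRNAs, which guide 2′-O-methylation). Their kept sites had many hnRNPA1 reads relative to library depth (geometric mean over the 4 libraries). Not every SNORD gene was considered, such as those without a match by gene ID. These 5 transcripts need not be the ones with the most reads of all. They are shown because snoRNA sites were kept more often than other sites and held much less U2AF2 signal with overexpression. Capitals mark TGATG, the core of the C box, and CTGA, the D box. In SNORD45A and SNORD117 a D box match and a C box match overlap. SNORD97 holds neither string. The sequences are GENCODE 29 transcripts matched by gene ID.

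SNORD97: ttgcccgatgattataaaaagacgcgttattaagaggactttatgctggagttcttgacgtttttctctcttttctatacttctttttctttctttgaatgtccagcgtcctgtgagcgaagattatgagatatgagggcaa
SNORD45C: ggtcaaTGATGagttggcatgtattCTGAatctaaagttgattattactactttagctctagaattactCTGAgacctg
SNORD45A: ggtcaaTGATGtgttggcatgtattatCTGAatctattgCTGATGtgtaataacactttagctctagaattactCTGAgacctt
SNORD56: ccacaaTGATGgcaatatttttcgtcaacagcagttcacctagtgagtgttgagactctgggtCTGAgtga
SNORD117: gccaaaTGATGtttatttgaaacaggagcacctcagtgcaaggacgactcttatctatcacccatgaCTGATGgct

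Among 55 SNORD transcripts with a kept site, TGATG occurred in 53 (96.4%) and CTGA in 54 (98.2%), against 91.0% and 98.2% of the 278 SNORD transcripts in GENCODE 29. TAGG, a string often found in hnRNPA1 sites, occurred in 3 of the 55 (5.45%) and in 20.9% of all SNORD transcripts. TAG, of which TAGG is a longer form, occurred in 22 of the 55 and in 46.8% of all. The full set counts every SNORD gene, including similar copies and genes that may not be expressed in these cells. The differences between the sets were not tested. Only the transcript strand was searched, and median transcript length was 76 nt in the kept set and 82 nt overall. A match describes the letters and is not a measured binding site.

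On SNORD97, which lies within the translation factor gene EIF4G2 (hg19 chr11:10823009-10823136, minus strand), hnRNPA1 had 475 and 392 reads in control libraries and 205 and 213 with overexpression. U2AF2 had 787, 913 and 958 reads there in control libraries and 52, 116 and 43 with overexpression, although the overexpression libraries were deeper. SRSF1 had 74, 82 and 120 reads and then 254, 356 and 395. Its overexpression libraries were also deeper, at 170719 to 321129 reads in peaks against 121534 to 168204. Raw reads therefore enlarge the SRSF1 rises given here. For both proteins the read numbers of the groups did not overlap, with U2AF2 lower and SRSF1 higher. SNORD56 (chr20:2637280-2637341, plus strand), inside NOP56, showed the same order: U2AF2 went from 180, 307 and 298 reads to 19, 18 and 33, and SRSF1 from 185, 80 and 213 to 784, 787 and 721. SNORD117 (chr6:31504150-31504212, minus strand) lies in DDX39B, a gene for an RNA helicase of splicing and export. U2AF2 read numbers there were 185, 306 and 408 in control cells and 0, 0 and 13 with overexpression. SNORD45C (chr1:76252762-76252886, plus strand), in RABGGTB, kept SRSF1 reads in an overlapping range, 405, 159 and 430 against 268, 382 and 196. U2AF2 reads on it were 306, 286 and 352, then 31, 0 and 7. SNORD45A and SNORD45C are similar in sequence, and reads may be split between such copies. Reads on a snoRNA and on its host intron were not separable either, since most sites were listed under both genes.

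Summed over the 64 snoRNA and scaRNA sites, U2AF2 had 14812, 12903 and 11035 RPM (reads per 1000000 reads in peaks of the library) in control libraries and 614, 832 and 504 with overexpression. Peaks were called on 62, 64 and 63 of the sites and then on 45, 44 and 57. SRSF1 had 50029, 39108 and 61143 RPM and then 80296, 62959 and 68635, with peaks on 57 to 63 and then 63 to 64 sites. Neither protein's groups overlapped, and the gap was far wider for U2AF2. hnRNPA1 itself had 4476 and 4866 RPM, then 5649 and 8190.

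**Figure D1:**
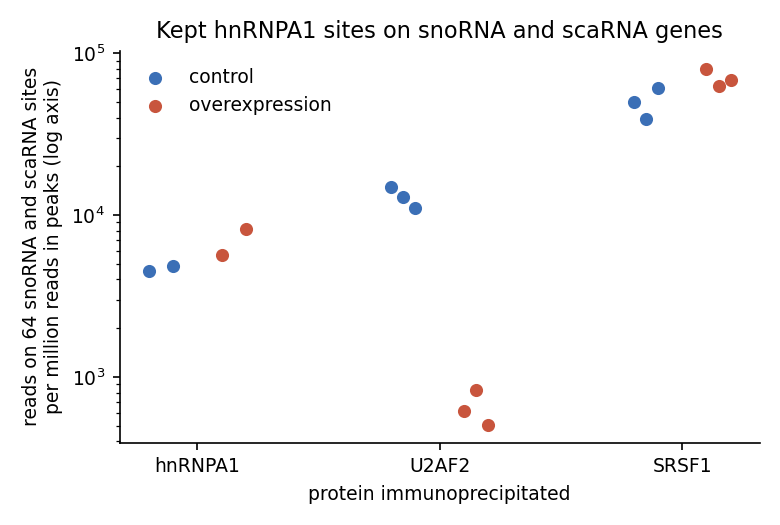
RPM on the 64 kept snoRNA and scaRNA sites (log axis), 1 point per library, for hnRNPA1 (2 libraries per condition), U2AF2 and SRSF1 (3 per condition). U2AF2 points sit at 11035 to 14812 in control cells and at 504 to 832 with overexpression, while SRSF1 points sit at 39108 to 61143 and 62959 to 80296.

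Kept sites were spread over 3503 genes, 24.6% of the 14214 genes with any hnRNPA1 site. A single kept site was found on 2046 of these genes (58.4%), and 139 genes held at least 10. The 12 genes with the most held 1366 sites (14.7%). ERBB4, a receptor tyrosine kinase for neuregulins, and SLIT2, a secreted axon guidance ligand, had 259 kept sites each. LRP1B, a giant lipoprotein receptor, had 170, and XIST, the long non-coding RNA of X inactivation, had 102. EFNA5 (an ephrin ligand) had 97, NFIA (a transcription factor) 89, ROBO1 (a receptor of SLIT proteins) 88 and PRKG1 (a cyclic GMP-dependent kinase) 78. KCNQ5 (a potassium channel), AUTS2, PCDH7 (a protocadherin) and ERC1 followed with 65, 64, 49 and 46.

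These genes differed in the share of their control sites that were kept. A kept site needed a peak in the shallower overexpression libraries, so this share also depends on the reads per site. Control medians were 46 and 41 reads on kept sites and 19 and 17 on sites of both control libraries only. The part of read number in the differences between genes was not tested. Of the sites present in both control libraries, 68.0% were kept on XIST, 63.5% on SLIT2 and 59.0% on LRP1B, but 38.8% on ERBB4, 27.8% on AUTS2 and 26.9% on PRKG1. MALAT1, a nuclear-speckle RNA, kept 78.0% of such sites (39 kept) and NEAT1, the scaffold of paraspeckles, kept 60.0% (27 kept). The transcripts of the studied proteins were among the sites: SRSF1 held 7, HNRNPA1 5 and U2AF2 2. Kept sites on HNRNPA1 spanned chr12:54677162-54678769. By annotation, 89.9% of the kept sites lay on protein-coding genes, and 636 sites were listed under more than 1 gene.

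Groups of related genes also differed in the share of kept sites, with the same limit. Of the sites in both control libraries, 53.0% were kept on the list of abundant nuclear and long non-coding RNAs and 49.1% on snoRNA host genes such as TAF1D (7 kept sites), GAS5, NCL and SNHG1 (6 each). The hnRNP family list kept 24.9%, with a kept site on 23 of its 29 genes. HNRNPH1 had 19 of these sites, HNRNPA2B1 14, HNRNPU 13 and SYNCRIP 12. SR proteins and their kinases kept 25.4% over 23 of 24 genes, led by SRPK2 (13), SREK1 (11), SRSF11 (11) and SON (9). Factors of the 3′ splice site and U2 snRNP kept 22.2%, on 10 of 21 genes, with RBM39 (18 sites) first. Chromatin regulators had the lowest share among these groups, 18.0%, near the 16.9% over all genes. Ribosomal protein genes, translation factors, cell cycle genes and very long neural adhesion genes kept 29.9%, 26.3%, 25.4% and 26.2%.

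Kept sites had a median width of 125 nt (5th to 95th percentile 51 to 406), against 73 nt for sites found in both control libraries only. In 8802 of them (94.9%) at least 1 nt was covered in all 4 libraries, with a median of 44 nt. With gaps of at most 500 nt, 2915 sites (31.4%) fell into 1002 clusters of at least 2 sites, and 98 clusters held 5 or more. For sites of both control libraries only, 35.6% fell into clusters. The largest cluster held 53 kept sites in the 5532 nt of XIST between chrX:73040988-73046519. On SLIT2 a cluster of 42 sites covered chr4:20270637-20280858 and another of 17 covered chr4:20299179-20303946. MALAT1 had a cluster of 24 (chr11:65268481-65271717), XIST a further one of 23 (chrX:73066468-73070747) and HNRNPH1 one of 13 (chr5:179046729-179049142). hnRNPA1 on the larger SLIT2 cluster went from 1150 and 1165 RPM in control libraries to 4794 and 5041 with overexpression. On the HNRNPH1 cluster they went from 1001 and 1102 to 2040 and 1924.

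The hnRNPA1 libraries differed in depth with the condition, at 2940786 and 2480791 reads in peaks (control) and 540256 and 566544 (overexpression). Median reads on a kept site were 46 and 41 in control libraries and 15 and 16 with overexpression. A kept site sat at the caller's minimum of 6 reads in at most 0.388% of cases in control libraries and in 7.69% and 6.52% with overexpression. Just outside the rule, the 11555 sites that lacked a peak in 1 overexpression library had control medians of 31 and 27 reads. Kept sites held 26.1% and 27.2% of the reads in peaks in control libraries and 45.3% and 45.9% with overexpression. The log2 ratio of a site's read share, overexpression over control, had a median of 0.87 (5th to 95th percentile -0.74 to 2.14). It was at least 2-fold higher at 4005 sites and at least 2-fold lower at 292. These ratios were computed from the libraries that chose the sites, in which a shallow library can pass a site only if enough reads remain.

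On SLIT2, hnRNPA1 had 5866 and 6224 RPM on kept sites in control libraries and 24227 and 25098 with overexpression. LRP1B went from 3057 and 2791 to 11441 and 10123, NEAT1 from 1789 and 1866 to 6726 and 7555, and ERBB4 from 8740 and 8838 to 16000 and 15709. ROBO1 moved least among these genes, from 2464 and 2333 to 3280 and 3500. Among sites with at least 50 reads in every library, the highest ratio was on NEAT1 (chr11:65194074-65194116, plus strand), with 98 and 130 reads, then 254 and 248 in libraries of lower depth. Its read share was 10.9 times as high. XIST (chrX:73041094-73041183), SLIT2 (chr4:20276849-20277090) and LRP1B (chr2:142449397-142450010) followed with ratios of 9.62, 7.69 and 7.53. The lowest ratios were on the U2 snRNA copy RNU2-2P beside WDR74 (chr11:62609094-62609280), from 1450 and 1222 reads to 55 and 68, and on XIST at chrX:73072226-73072251, from 2177 and 2206 to 175 and 91. Their read share ratios were 0.224 and 0.281. XIST thus held sites at either end of the order. Reads on RNU2-2P may be shared with other U2 copies.

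U2AF2 peaks were found on fewer kept sites with overexpression. They covered 2548, 2528 and 2998 of the 9274 sites in control libraries and 1704, 1904 and 2160 with overexpression, and the groups did not overlap. That is 29.0% ± 2.87 and 20.7% ± 2.46 of the sites (SD, n = 3 each), a difference of -8.29 percentage points (exact two-sided permutation p = 0.1, the smallest that 3 against 3 libraries allow). The share of U2AF2 reads on kept sites was 25.0%, 23.2% and 20.7% in control libraries and 9.19%, 9.83% and 7.36% with overexpression, a difference of -14.2 points (exact two-sided permutation p = 0.1). The overexpression libraries were the deeper ones, with 2259743 to 3491032 U2AF2 reads in peaks against 692837 to 1145380. With the same number of peaks taken from each library, U2AF2 covered 26.4% to 30.0% of the sites in control libraries and 11.4% to 14.8% with overexpression.

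At sites of both control libraries only the order was the opposite. U2AF2 peaks covered 18.3%, 18.1% and 25.0% of those 33894 sites in control libraries and 31.2%, 31.7% and 34.5% with overexpression. The difference between the site classes within a library went from 8.56 ± 1.05 points in favour of kept sites to -11.7 ± 0.982 points (SD, n = 3 each). This change of -20.3 points had an exact two-sided permutation p of 0.1, again the smallest possible. Over all 8 classes of merged site, the ratio of U2AF2 coverage, overexpression over control, was 0.714 at kept sites. It was 0.990 where a peak was missing in 1 overexpression library, 1.59 at sites of both control libraries only and 2.06 at sites of 1 control library only. Sites of 1 library per condition had 0.816, and the 3 classes with more overexpression than control libraries had 0.542 to 0.576. In windows of equal width around the middle of each site, the kept sites had 0.674 and the sites of both control libraries only 1.59, but the sites of 1 overexpression library only had 1.08 and those of both overexpression libraries only 0.940.

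**Figure D2:**
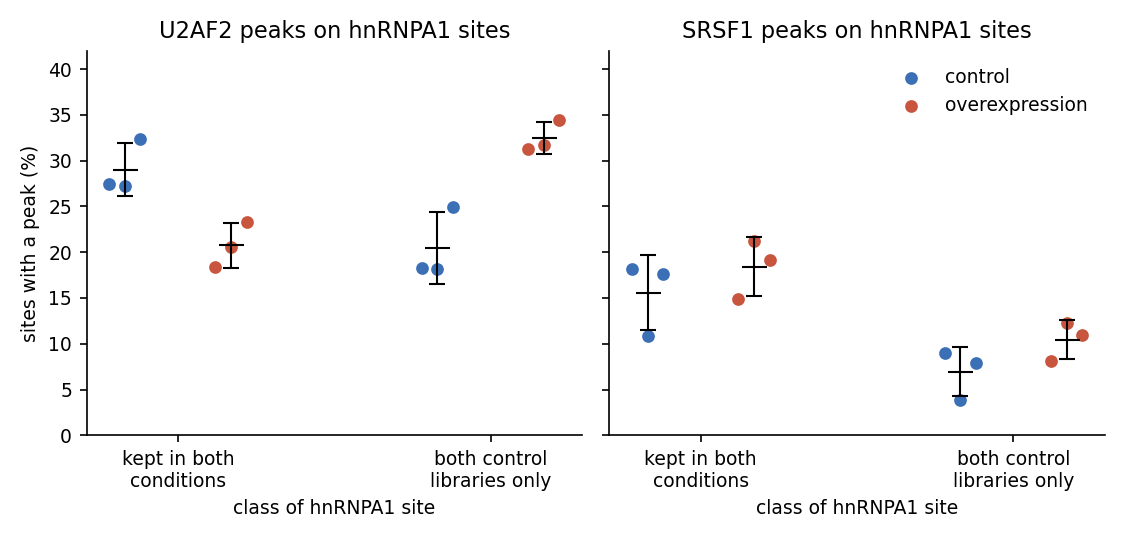
Percent of hnRNPA1 sites that a U2AF2 (left) or SRSF1 (right) peak overlaps by at least 1 nt, for 9274 kept sites and 33894 sites of both control libraries only. Points are libraries and bars show mean ± SD (n = 3). U2AF2 means were 29.0% and 20.7% at kept sites, libraries at the others lay at 18.1% to 25.0% and then at 31.2% to 34.5%, and SRSF1 groups overlapped at kept sites.

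Around the kept sites, U2AF2 coverage peaked at the middle of the site, at 21.3% ± 2.02 of sites in control cells and 12.5% ± 0.72 in overexpressing cells (mean ± SD of 3 libraries). At 1000 nt downstream it was 6.25% and 4.88%. SRSF1 coverage at the middle was 10.9% ± 2.70 and 14.0% ± 2.49, with overlapping groups. At sites of both control libraries only, U2AF2 coverage at the middle was 17.2% in control cells and 28.6% with overexpression.

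**Figure D3:**
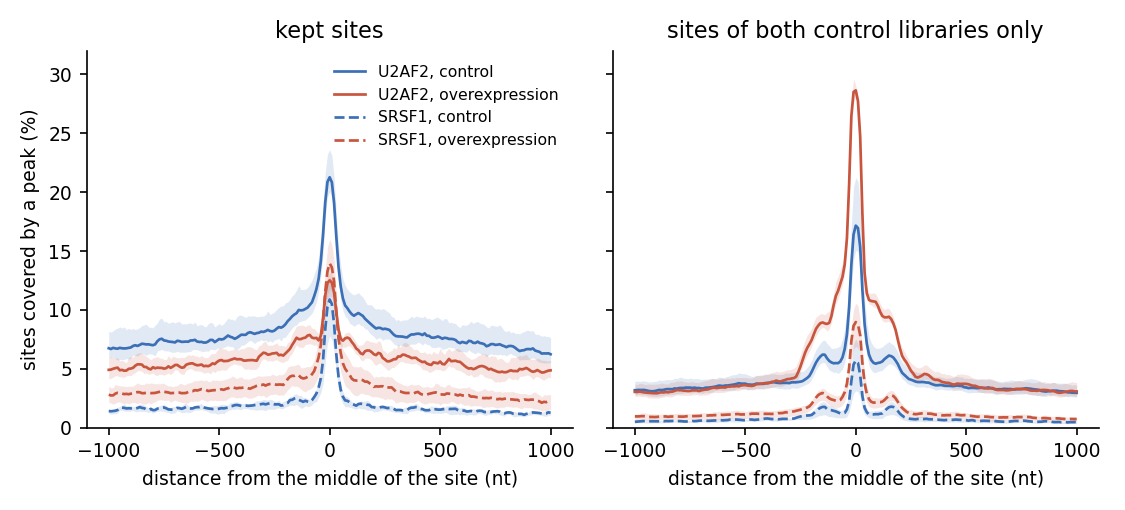
Percent of sites covered by a peak at each distance from the middle of the site (nt), for kept sites (left) and sites of both control libraries only (right). Lines are means of 3 libraries and shading runs from the lowest to the highest library. The U2AF2 control line stands above the overexpression line across the kept sites (21.3% and 12.5% at the middle) and below it at the middle of the others (17.2% and 28.6%).

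The U2AF2 ratio varied among kept sites. When the sites were divided into 4 equal groups by hnRNPA1 reads relative to depth, U2AF2 coverage went from 13.5% to 11.8% in the lowest group, from 22.9% to 18.5% and 31.4% to 22.5% in the middle groups, and from 48.3% to 30.1% in the highest. Ordered instead by the change in hnRNPA1 read share, the group with the lowest ratio (median log2 -0.12) went from 53.8% to 44.8%. The group with the highest (median log2 1.74) went from 15.6% to 8.96%. Mean coverage was lower with overexpression in each of the 8 groups, but in the lowest group by reads the libraries overlapped, at 12.2% to 15.7% and 10.3% to 13.6%. Both orders use the hnRNPA1 values that chose the sites, and median width differed with them, from 93 to 180 nt by reads and from 150 to 102 nt by ratio. The part of width and reads in these differences was not tested.

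By site, 1299 kept sites had a U2AF2 peak in at least 2 of 3 libraries of both conditions, and 865 had 1 in all 6 libraries. U2AF2 peaks in at least 2 control libraries and 0 with overexpression were found at 928 sites (10.0%). The opposite pattern was found at 302 (3.26%). No U2AF2 peak was called in any library at 4873 sites (52.5%).

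Reads per site were then fitted over all merged hnRNPA1 sites with a U2AF2 peak in at least 3 of 6 libraries, as log2 of normalised reads plus 1. With limma and Benjamini-Hochberg adjustment, 1260 of 2492 kept sites tested fell (50.6%) and 383 rose (15.4%). Over all 24826 sites tested, 18.5% fell and 44.9% rose. The median log2 change was -2.66 at kept sites and 2.06 over all. These values moved with single libraries. Without overexpression replicate 1, 2 or 3, 927 of 15438, 1022 of 15364 and 1377 of 15117 sites tested rose, and the median over all was 0.52, 0.49 and 0.74. Without control replicate 1, 2 or 3, 2509 of 22008, 2492 of 21988 and 2328 of 21604 fell, and the median at kept sites was -0.67, -0.74 and -0.54. Fewer sites met the filter in each of these fits. In all 6 of them the median at kept sites was below 0 and that over all above 0. Scaling by total reads in peaks moved the medians to -2.03 and 2.56, with 1177 kept sites lower and 581 higher. Without overexpression replicate 1, 2 or 3 the rises at kept sites numbered 130, 145 and 182, and without control replicate 1, 2 or 3 the falls numbered 767, 797 and 767. A peak needed at least 6 reads, which equals 10.4 to 17.7 normalised reads in control libraries but 2.62 and 3.11 in overexpression replicates 1 and 2 and 0.956 in replicate 3, which lists peaks from 3 reads. A weak site could therefore count as 0 in control libraries alone, which bears on rises more than on falls. Among sites with a U2AF2 peak in all 6 libraries, 422 of 865 kept sites fell and 217 rose, where 27.1% and 39.3% of all 4411 sites did. Medians there were -0.70 at kept sites and 0.41 over all.

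**Figure D4:**
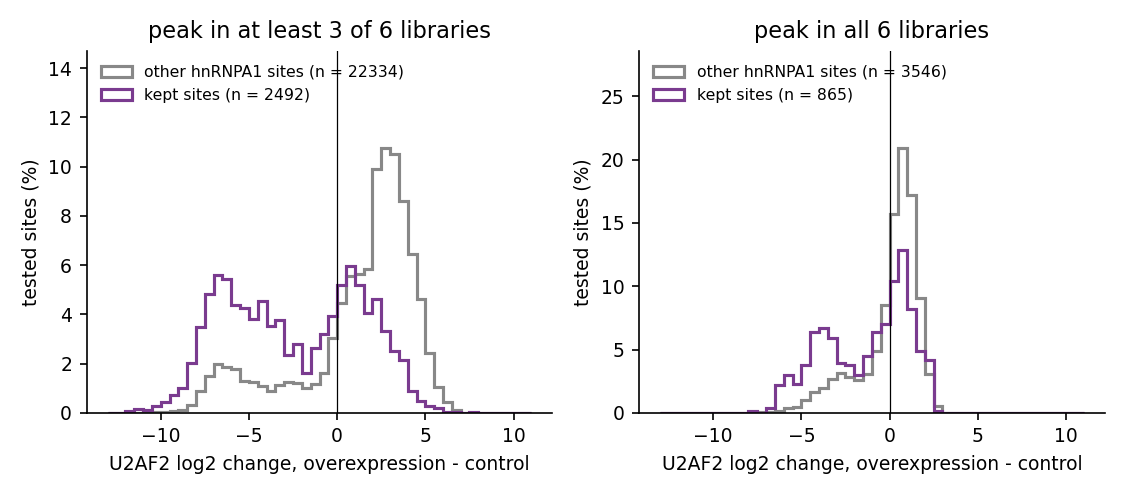
Distribution of the U2AF2 log2 change per site (overexpression minus control, bins of 0.5), as a percent of the sites tested, for kept sites and all other hnRNPA1 sites with a U2AF2 peak in at least 3 libraries (left) or in all 6 (right). Kept sites have the larger share below 0, with medians of -2.66 (n = 2492) and -0.70 (n = 865).

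The steepest U2AF2 falls at kept sites ended in no called peak. On XIST at chrX:73061397-73061510 (minus strand), U2AF2 had 1566, 1620 and 1403 reads in control libraries and 0, 0 and 0 with overexpression. On MALAT1 at chr11:65271088-65271132 it had 351, 324 and 450, then 0, 0 and 0. On ROBO1 at chr3:78961429-78962297 it had 208, 321 and 175, then 0, 0 and 0. ZNF711, a zinc finger gene (chrX:84501573-84501890), had 709, 674 and 6684 reads and then 0, 0 and 7. DDX39B (chr6:31508859-31508990) had 394, 375 and 482, then 0, 0 and 14, and NEAT1 (chr11:65197099-65197221) had 392, 407 and 502, then 0, 11 and 0. Each passed limma's test, with adjusted p between 9.99e-06 (XIST) and 0.000223 (NEAT1). Control libraries alone were enough for all 6 sites to meet the filter of 3 libraries, so their p-values are not independent of it. All 6 sites were untested in the set with a peak in all 6 libraries. Overexpression replicate 3 lists no peak anywhere on XIST, so its 0 there may not be a measurement. Without that library the adjusted p was 0.000193 at the XIST site and at most 0.000985 at the others (limma). Control and overexpression libraries did not overlap at any of these 6 sites. hnRNPA1 kept its peaks there by the rule, with 1626, 1887, 795 and 1304 reads on the XIST site.

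The 6 largest U2AF2 rises began from no called peak in any control library. SEPTIN7P2, a pseudogene (chr7:45764724-45764857), had 0, 0 and 0 U2AF2 reads in control libraries and 460, 393 and 460 with overexpression. DAND5, which encodes a secreted BMP antagonist (chr19:13085164-13085206), had 0, 0 and 0, then 250, 194 and 231 reads. ZNF226 (chr19:44662537-44662682) went from 0 to 136, 145 and 151 reads, MORC3 (chr21:37711588-37711648) from 0 to 152, 100 and 171, and STAG3L1 (chr7:74995815-74995880) from 0 to 122, 113 and 188. HOOK3 completed the list with 164, 227 and 155 reads. All had adjusted p between 9.99e-06 and 3.79e-05 with limma, and all were untested in the set with a peak in all 6 libraries. With 0 reads in control libraries, they met the filter of 3 libraries through overexpression libraries alone, so their p-values are not independent of it. SEPTIN7P2 and STAG3L1 belong to families of near-identical copies, so their counts are uncertain.

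Where U2AF2 peaks were present in all 6 libraries the changes can be sized. TMEM45A (chr3:100291225-100292571), which encodes a membrane protein, held one of the 8 kept sites with the most hnRNPA1 reads relative to depth. U2AF2 there had 968, 956 and 1461 reads in control libraries and 492, 708 and 645 with overexpression, a log2 change after scaling of -3.39 ± 0.24 (SE, adjusted p = 7.76e-05, limma). SMIM14 (chr4:39594988-39596319) changed by -3.77 ± 0.22 and the GAS5 site at chr1:173834486-173834567 by -4.43 ± 0.32. GAS5 is a non-coding snoRNA host gene. HNRNPU, which encodes a chromatin-associated RNA-binding protein (chr1:245015698-245016024), had 292, 346 and 351 U2AF2 reads and then 0, 42 and 0. The site with the most hnRNPA1 reads relative to depth, on XIST (chrX:73043548-73043599), had no U2AF2 peak in any library. PXMP2 (chr12:133268579-133271833), the widest kept site at 3255 nt, had neither a U2AF2 nor an SRSF1 peak.

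Grouped by function, U2AF2 fell at most tested kept sites of each list described here other than the very long neural genes. In the hnRNP family 53 of 59 tested sites fell and 3 rose. SR proteins and their kinases had 38 falls and 5 rises of 45, factors of the 3′ splice site and U2 snRNP 20 and 1 of 23, ribosomal protein genes 38 and 1 of 40, snoRNA host genes 44 and 2 of 48, and translation factors 17 and 4 of 25. Over all sites tested, 18.5% fell. With a peak in all 6 libraries, 19 of 19 hnRNP family sites and 18 of 18 ribosomal protein sites fell, against 27.1% of all sites in that set and 422 of its 865 kept sites. Median log2 changes in that set were -5.08 and -4.16. Of 63 tested snoRNA and scaRNA sites, 61 fell and 0 rose. Very long neural genes were more mixed, with 32 falls and 11 rises of 73, and LRP1B alone had 4 falls and 5 rises of 20. On the HNRNPA1 transcript 4 of 5 tested sites fell and 1 rose.

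U2AF2 RPM on the kept sites of ERBB4 were 6717, 4494 and 13490 in control libraries and 183, 358 and 258 with overexpression. ROBO1 went from 4402, 2733 and 4825 to 202, 234 and 196, and SLIT2 from 3745, 2428 and 3607 to 260, 399 and 245. MALAT1 went from 11034, 11121 and 8470 to 994, 1460 and 624. The number of sites covered changed less than the reads on ERBB4, with 75, 67 and 148 of 259 sites and then 33, 59 and 72. PCDH7 and KCNQ5 had few U2AF2 peaks in either condition, at most 2 of 49 and 6 of 65 sites. XIST had the largest share of U2AF2 reads among these genes, 63090, 57503 and 36038 RPM in control libraries. With overexpression it had 4934 and 7094 in replicates 1 and 2 and no peak at all in replicate 3. That library uses versioned gene IDs, and 317 kept sites (3.42%) lay on genes without any peak in it. Without XIST the U2AF2 read share differed by -9.41 points in place of -14.2, and without the 12 genes with the most kept sites by -7.92 points.

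**Figure D5:**
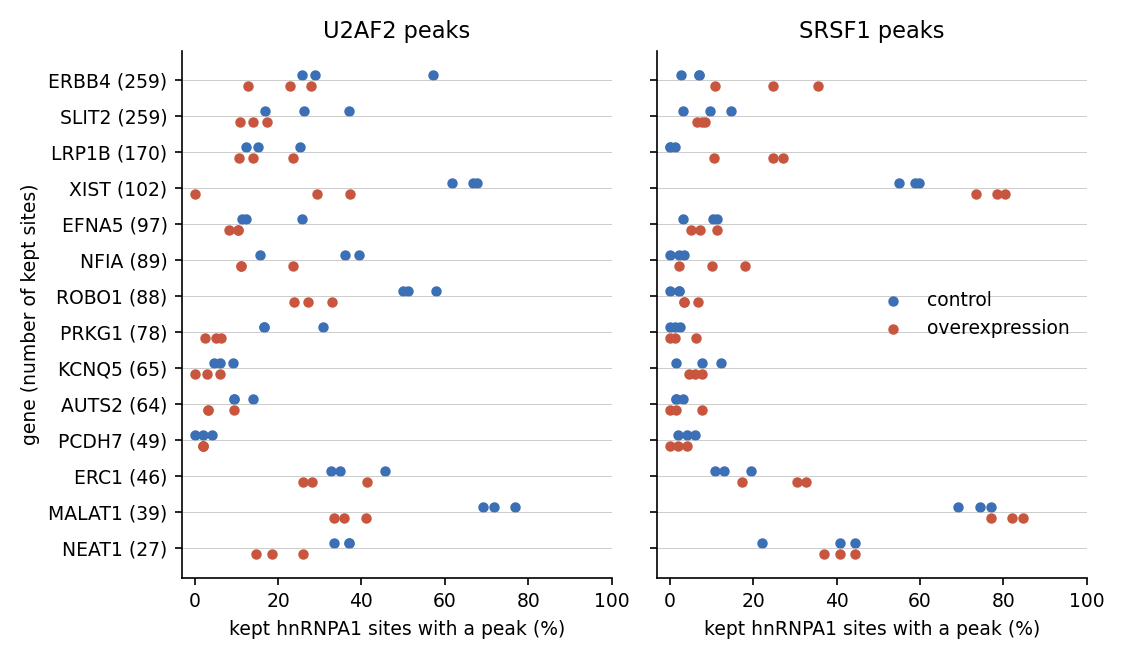
Percent of the kept sites of each gene with a U2AF2 (left) or SRSF1 (right) peak, 1 point per library, for the 12 genes with the most kept sites, MALAT1 and NEAT1 (number of kept sites in brackets). U2AF2 points lie lower with overexpression on ROBO1 (44 to 51 of 88 sites, then 21 to 29) and MALAT1 (27 to 30 of 39, then 13 to 16), and SRSF1 points lie higher on LRP1B (0 to 2 of 170, then 18 to 46).

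SRSF1 peaks covered 1685, 1006 and 1638 kept sites in control libraries and 1385, 1970 and 1773 with overexpression, or 15.6% ± 4.09 and 18.4% ± 3.21 (SD, n = 3 each). The groups overlapped and the difference of 2.87 points was within the spread (exact two-sided permutation p = 0.4). The share of SRSF1 reads on kept sites was 31.2%, 29.7% and 34.6% in control libraries and 40.4%, 36.3% and 37.9% with overexpression. These groups did not overlap, and the difference was 6.35 points (exact two-sided permutation p = 0.1, the smallest possible). The gap in coverage between kept sites and sites of both control libraries only was 8.61 points and then 8.01 (exact two-sided permutation p = 0.5). Depth was low for SRSF1, at 121534 to 321129 reads in peaks per library, and the 2 deepest were from overexpressing cells.

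In the fit per site with limma and Benjamini-Hochberg adjustment, SRSF1 rose at 149 of 1544 kept sites tested (9.65%) and fell at 66 (4.27%), against 11.0% and 4.18% of all 6573 sites. With a peak in all 6 libraries, 62 of 524 rose and 13 fell, against 7.7% and 2.68% of 1233. These calls are fragile: with the replicate number as a block, 0 kept sites passed in either direction. Without any 1 of the overexpression replicates 1, 2 or 3, 0 kept sites passed in either direction as well. At an unadjusted p under 0.05, between 115 and 125 kept sites rose and between 98 and 111 fell in those fits.

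Several SRSF1 rises began from no called peak. XIST at chrX:73044124-73044206 had 0, 0 and 0 SRSF1 reads in control libraries and 150, 357 and 254 with overexpression. On the same site U2AF2 had 518, 607 and 384 reads and then 0, 0 and 0, the last from the library with no peak on XIST. MALAT1 at chr11:65271414-65271445 had 0 SRSF1 reads in control libraries and 63, 168 and 97 with overexpression. U2AF2 had 241, 248 and 304 reads there and then 0 in each overexpression library. These sites were picked by their SRSF1 change, and U2AF2 fell at 50.6% of all kept sites tested for it. Whether SRSF1 replaced U2AF2 was not tested. KHDC4, a gene for an RNA-binding protein of splicing (chr1:155884495-155884804), had 31, 113 and 51 SRSF1 reads with overexpression and 174, 221 and 266 U2AF2 reads in control cells only. NEAT1 (chr11:65190680-65190714) rose for both proteins. U2AF2 had 0, 0 and 0 reads there in control libraries and 29, 39 and 36 with overexpression, at most 20.2 normalised reads. A U2AF2 peak needed 10.4 to 17.7 normalised reads in control libraries. A site at this level could therefore count as 0 there without a change, and the U2AF2 rise is uncertain. The adjusted p of these SRSF1 rises lay between 0.00156 and 0.00477 with limma in the fit of all 6 libraries. With 0 reads in control libraries, these sites met the filter through overexpression libraries alone. A peak of 6 reads equals 5.73 to 10.2 normalised SRSF1 reads in control libraries and 3.92 to 6.71 with overexpression. Falls were found on RACK1, a ribosomal scaffold gene (chr5:180665308-180665685), with 39, 31 and 39 reads and then 0, 0 and 0, and on HMGN1, SUMO3, DENND10 and other sites of MALAT1 and NEAT1 (adjusted p 0.00476 to 0.00477, limma). These falls ended at 0 reads and met the filter through control libraries alone. Neither the rises nor the falls were tested in the set with a peak in all 6 libraries. None of them passed with the replicate number as a block.

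By gene, SRSF1 covered 2, 0 and 0 of 170 kept sites on LRP1B in control libraries and 18, 46 and 42 with overexpression. On ERBB4 it covered 18, 7 and 18 of 259 and then 28, 92 and 64. SLIT2 did not follow, with 38, 8 and 25 of 259 sites and then 22, 20 and 17. On snoRNA and scaRNA genes 23 of 63 tested sites rose and 3 fell, and on ribosomal protein genes 11 of 34 rose and 2 fell. Over all sites tested, 11.0% rose and 4.18% fell. hnRNP family genes had 4 rises and 0 falls of 41, a share of rises near that over all sites. None of these SRSF1 calls passed with any 1 overexpression replicate left out or with the replicate number as a block.

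U2AF2 and SRSF1 shared many kept sites. In at least 2 of 3 libraries each, both proteins had peaks at 1072 sites in control cells, at 1008 with overexpression and at 698 in both conditions.

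RNA-seq of polyadenylated RNA gave the authors' deposited table of 251 cassette exon events, in which exon inclusion is a fraction of transcripts. Of the spans of these events, 53 (21.1%) held a kept site. The sum over events was 124, in which a site counts again in each overlapping span, such as those of CERS5 and MDM2. The 53 events were 34 of 154 with lower inclusion on overexpression (22.1%) and 19 of 96 with higher inclusion (19.8%). In the authors' deposited table, an exon of TRA2A, an activator of splicing, had inclusions of 0.25 and 0.46 in control samples and 0.12 and 0.14 with overexpression. Its span held 9 kept sites, with U2AF2 peaks on 1, 3 and 4 of them in control libraries and on 0 in each overexpression library. RBM39, a U2AF-related splicing factor, had an exon at 0.72 and 0.44, then 0.15 and 0.15, in the authors' deposited table. Of its 5 kept sites U2AF2 covered 5 in every control library and 2 in every overexpression library, and SRSF1 covered 2, 1 and 3, then 4, 5 and 5. An exon of SON, a speckle protein gene, had inclusions of 0.58 and 0.23, then 0.03 and 0.06, in the authors' deposited table, and U2AF2 covered 4 of its 4 kept sites in each control library and 1, 0 and 0 with overexpression. The lower-inclusion events with 6 kept sites were mixed. U2AF2 covered 5, 6 and 5 and then 1, 2 and 1 sites on CALM2. On an MDM2 event it covered 0, 0 and 0 and then 1, 2 and 3. On CPNE1 it covered 0, 0 and 1 and then 0, 0 and 0. The events with higher inclusion and the most kept sites, 6 each, did not show the order seen on TRA2A, RBM39 and SON. An exon of ANAPC5, a subunit of the anaphase-promoting complex, had inclusions of 0.37 and 0.59, then 0.79 and 0.54, in the authors' deposited table, and U2AF2 covered 4, 5 and 6 of its sites and then 3, 5 and 5. An exon of CHTOP, a gene for an mRNA export factor, had 0.39 and 0.9, then 0.81 and 0.83, in the authors' deposited table, and U2AF2 covered 0, 0 and 3 sites and then 1, 1 and 1. Both the inclusions and the U2AF2 counts overlapped between conditions for the ANAPC5 and CHTOP exons. Among higher-inclusion events with fewer kept sites, U2AF2 covered 2, 2 and 1 and then 0, 0 and 0 sites on ITGB3BP. On ZNF121 it covered 1 site in every library. Whether U2AF2 coverage goes with exon inclusion was not tested.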

How the data were processed

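Peaks of 16 iCLIP libraries and skipped-exon values of 4 RNA-seq samples were used. Per the file headers, the authors mapped reads to hg19 with TopHat, filtered repeats and ran CLIPper on every library by itself. The submitters' processing notes also name Bowtie2. The BED files as deposited give a p-value per peak, below 0.05 in each library, and hold the peak's read number within its name. That number is a read count after the caller's minimum and not a plain count per feature, so no count model was run. The deposited MISO table gives exon inclusion as a fraction per sample and a Bayes factor as a ratio per pair. Events are listed from a difference of 0.33 and a Bayes factor of 5 upwards.

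Identical intervals listed under several genes were counted once. Replicate libraries shared at most 0.069% of their peaks with equal read numbers, so each counted as 1 sample. The labels do not say that they came from separate cultures, and p-values measure the spread between these libraries. Coverage by U2AF2 or SRSF1 needed an overlap of at least 1 nt on the same strand. Library values were compared by exact two-sided permutation tests. Reads per merged site were scaled by the median of ratios of those genes that had peaks in all libraries of a protein, and log2(scaled reads + 1) was fitted with limma 3.58.1 (trend, R 4.3.3). Sites needed a peak in at least 3 of 6 libraries. Adjustment (Benjamini-Hochberg) covered all merged hnRNPA1 sites tested, with a threshold of 0.05. The fit was tested on simulated data with changes at a small part of the sites and a minimum of 6 reads in every library. U2AF2 overexpression replicate 3 lists peaks from 3 reads and many U2AF2 sites changed. The simulation therefore does not settle how the calls behave here. Scripts ran in Python 3.11.15 with scipy 1.17.1, pandas 2.3.3, numpy 2.4.6 and, for figures, matplotlib 3.10.9.

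The sites, gene lists and tests were chosen with earlier results of these data known. Named genes were the 12 with the most kept sites, the 3 studied genes and up to 4 per list by number of sites. Named sites were the 8 with the most hnRNPA1 reads relative to library depth (geometric mean). The 6 largest changes in each direction per protein were also named, where all libraries of the higher condition had a peak. So were the 5 highest and 5 lowest hnRNPA1 ratios among sites with at least 50 reads per library. Each of these rules took at most 1 site per gene. The 6 largest clusters were named without that limit. snoRNA genes, MALAT1, NEAT1 as genes and the exon events were added afterwards. Of the 3503 gene IDs, 3221 had a name. Site sequences in hg19 were not used here, and snoRNA names and sequences came from GENCODE 29 by gene ID.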

Additional observations from a re-analysis of the deposited data

Results flagged for a closer look

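At kept hnRNPA1 sites and at sites of both control libraries only, U2AF2 coverage differed between conditions in opposite directions. The change in the gap between the site classes was -20.3 percentage points (exact two-sided permutation p = 0.1, the smallest possible), with coverage lower at kept sites and higher at the other sites in every overexpression library than in any control library.

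The share of U2AF2 reads on kept sites differed by -14.2 percentage points between conditions and that of SRSF1 reads by 6.35 points. Every overexpression library lay below every control library for U2AF2 and above every one for SRSF1. The difference between the proteins was not tested. U2AF2 depth also differed between conditions, at 692837 to 1145380 reads in peaks and 2259743 to 3491032, and its part in the result was not tested beyond the fit with equal numbers of peaks.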

How the results depend on the processing

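Of 114 recomputed shares, 113 kept their direction. With 3 against 3 libraries no p of theirs could pass 0.05, so this says nothing of calls. The SRSF1 gap between kept sites and sites of both control libraries only turned to 2.04 points with peaks of at least 12 reads; the cause was not tested. Counts of U2AF2 rises at kept sites were 581 with total reads as the scale and 217 with a peak in all 6 libraries, and ran from 130 to 449 with 1 library left out. U2AF2 falls numbered 422 with a peak in all 6 libraries, where fewer sites are tested, and 767 to 1223 with 1 library left out. SRSF1 rises and falls numbered 62 and 13 with a peak in all 6 libraries and 69 and 19 without a filter, and ran from 0 to 201 and from 0 to 14 with 1 library left out. With the replicate number as a block, U2AF2 rises and falls were 352 and 1223, and SRSF1 had 0 and 0 (254 and 105 at an unadjusted p under 0.05). The labels do not say whether equal replicate numbers mark pairs. Correlations of same-numbered deviations were -0.01, 0.06 and 0.02 for U2AF2 and 0.13, 0.12 and 0.08 for SRSF1. Each SRSF1 library correlated best with its own number, and whether these libraries were paired was not tested further. Sign-flip tests over pairs cannot go below an exact p of 0.25. Named U2AF2 and SRSF1 sites kept their direction in 201 fits and missed the threshold in 30 of these. Alternatives without XIST, without snoRNA genes, without the 12 genes with the most sites and with sites of at most 150 nt were chosen after seeing the data. Clusters held 20.8% of kept sites with gaps of at most 200 nt and 40.4% with 1000 nt. Reads in called peaks limit the depth: a site below the caller's minimum counts as 0.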
